A study of Mus musculus with 18 samples.

Results

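Basophils stimulated through their IgE receptor were followed between 2 h and 4 h in cells labelled TTP-KO. The comparison set the 3 libraries of TTP-KO basophils after 4 h of TNP-OVA against the 3 libraries of TTP-KO basophils after 2 h of TNP-OVA, 6 of the 18 libraries of the study. Every gene that passed an expression filter took part, 14076 of the 56413 genes in the count table, with no choice by outcome. All cells were mouse bone marrow cells grown for 7 days with IL-3 at 0.3 ng/mL, loaded with anti-TNP IgE at 1 µg/mL on day 6 and enriched magnetically for CD49b. The groups used were TTP-KO cells given control OVA for 2 h (antigen that the IgE does not bind) or TNP-OVA for 2 h or 4 h, and WT cells given the same 3 treatments, each antigen at 10 ng/mL and 3 libraries a group. No control was taken at 4 h, so time in culture and time with antigen cannot be told apart. Whether replicates are separate mice or cultures is not stated, nor is the altered part of the gene, and a p-value here covers no more than the spread among the libraries at hand.

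Tristetraprolin (TTP), the product of Zfp36, is a zinc finger protein that binds AU-rich elements in the 3′ untranslated region (UTR) of mRNAs and recruits the enzymes that shorten the poly(A) tail, after which the mRNA is degraded. Its best studied targets are mRNAs of cytokines and of early response proteins, and Zfp36 is itself an early response gene. Basophils are IgE-armed granulocytes that release histamine, lipid mediators and type 2 cytokines when antigen crosslinks their receptors, and much of the cytokine response depends on transcripts made in the first hours.

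Levels are given as CPM, the counts of a gene relative to its library's total after TMM scaling, and changes as log2 of the 4 h level over the 2 h level with the standard error (SE), from edgeR's quasi-likelihood fit over all 18 libraries. A gene was said to rise or fall when its Benjamini-Hochberg adjusted p over the 14076 genes was under 0.05. Levels are not scaled by transcript length and are compared only within a gene. The 3 libraries at 4 h held 7555770 to 11395300 counts and those at 2 h 7182840 to 8328830 counts, within 5516580 to 12733200 over the 18. The TMM factors were 1.02 to 1.03 at 4 h and 0.886 to 0.896 at 2 h, the share of mitochondrial transcripts was 1.90% to 2.01% at 4 h and 1.76% to 2.00% at 2 h, and the ribosomal RNA gene Rn18s-rs5 took 9.94% to 10.97% of counts at 4 h and 7.91% to 8.50% at 2 h. In the 6 TTP-KO stimulated libraries the first principal component held 55.0% of the variance and placed all 4 h libraries on one side and all 2 h libraries on the other. Zfp36 RNA itself was 349, 322 and 301 CPM at 4 h and 568, 553 and 572 CPM at 2 h, against a mean of 224 CPM in control cells. It fell by 0.80 on the log2 scale in TTP-KO cells and by 0.61 in WT cells, and this RNA does not test the genotype, since the altered part of the gene is not stated.

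The core of the element that TTP binds is the nonamer TTATTTATT, and sites of this kind from 7 transcripts that fell from 2 h to 4 h and hold it are shown here as they stand in the DNA strand that has the sequence of the mRNA, 10 bases on each side, with the nonamer in capitals. They were read from GENCODE M21 transcripts of GRCm38, an older build than the GRCm39 of the deposited counts, and serve to show the sequence only.
Il13: cttcttgatcTTATTTATTatggttgtgt
Serpinb2: ttttacagtgTTATTTATTgtttatataa
Ptgs2: ctgaccatatTTATTTATTtatgtgaaga
Plk3: tggaccacttTTATTTATTaacagacatt
Tnf: tttgcacttaTTATTTATTatttatttat
Csf2: ttttaaatatTTATTTATTtatttattta
Zfp36: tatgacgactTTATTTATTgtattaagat
The Il13 nonamer lies at chr11:53631751-53631759 on the minus strand, position 306 of a 3′ UTR of 741 bases, and is the only one in that UTR. The Serpinb2 nonamer at chr1:107525207-107525215 and the Ptgs2 nonamer at chr1:150105800-150105808, both on the plus strand, are also single, that of Ptgs2 at position 18 of a UTR of 2445 bases. Tnf, at chr17:35199699-35199707 on the minus strand, holds 5 overlapping or adjoining nonamers and Csf2, at chr11:54247339-54247347 on the minus strand, holds 4. Plk3 holds 2, the first at chr4:117128728-117128736 on the minus strand, and Zfp36 holds 1, at chr7:28376961-28376969 on the minus strand. Ccl3, Ccl4 and Il6, which took the most counts at 2 h among the reported TTP targets that fell, hold 0 nonamers in their matched UTRs.

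At 4 h of antigen, against 2 h, transcripts of most tested cytokines and early transcription factors and of the prostaglandin enzyme Ptgs2 were lower in TTP-KO basophils, while among ribosome biogenesis, interferon response and glycolysis genes more rose than fell. In the edgeR quasi-likelihood test 2050 genes rose, 14.6% of those tested, and 2284 fell, 16.2%. Counts within the lists below are to be read beside these shares. A change of at least 2-fold was seen in 176 genes that rose and 364 that fell. The 3 libraries at 4 h lay wholly above or wholly below the 3 at 2 h for 6096 genes, 43.3% of those tested. The median change over all genes was 0.03 on the log2 scale, so that the scaling left the bulk of genes near 0.

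**Figure D1:**
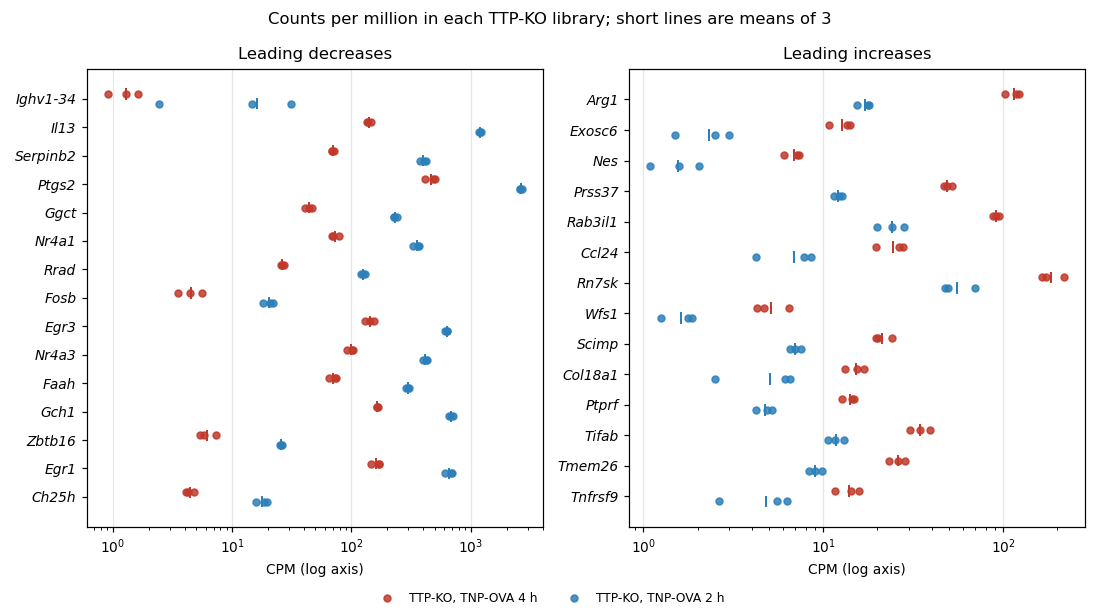
CPM on a log axis in each TTP-KO library at 4 h (red, above) and 2 h (blue, below) for leading decreases (left) and leading increases (right) among genes past the test. Il13 stood at 135 to 147 CPM at 4 h and 1184 to 1229.6 CPM at 2 h, and Arg1 at 102 to 123 CPM at 4 h and 15.4 to 18.05 CPM at 2 h.

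Il13, the type 2 cytokine that drives mucus production and airway reactivity, led the decreases among genes whose log2 CPM averaged 2 or more, apart from the sparse Ighv1-34. It had 137, 147 and 135 CPM at 4 h and 1229.6, 1201 and 1184 CPM at 2 h, with a control mean of 94.2 CPM. All 4 h libraries were far below all 2 h libraries and only a little above the control level, a change of -3.11 ± 0.06 (SE) at an edgeR adjusted p of 4.53e-25. Serpinb2, an inhibitor of plasminogen activators, had 71.4, 68.3 and 68.9 CPM at 4 h and 419.5, 404 and 378 CPM at 2 h. Its 4 h libraries also lay close to the control mean of 63.03 CPM, with a change of -2.52 ± 0.06. Ptgs2, which encodes the inducible cyclooxygenase COX-2 of prostaglandin synthesis, had 480.0, 502 and 415 CPM at 4 h and 2601, 2692 and 2589 CPM at 2 h. It changed by -2.50 ± 0.08 and its 4 h libraries remained above the control mean of 224 CPM.

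Several of the other large decreases were enzymes and signalling proteins rather than secreted factors. Ggct, an enzyme of glutathione turnover, had 41.2, 46.98 and 44.4 CPM at 4 h and 229, 240.3 and 226 CPM at 2 h, a change of -2.40 ± 0.06. Gch1, the first enzyme of tetrahydrobiopterin synthesis, had 168, 163 and 164 CPM at 4 h and 662, 686 and 715 CPM at 2 h and changed by -2.06 ± 0.05. Faah, which hydrolyses the lipid signal anandamide, had 74.8, 64.6 and 73.1 CPM at 4 h and 287, 298 and 304 CPM at 2 h. In none of these 3 genes did the groups overlap, and the 4 h libraries of Faah were all below its control mean of 79.9 CPM. Rrad, a small Ras-like GTPase, changed by -2.25 ± 0.08, Zbtb16, the transcription factor PLZF, by -2.04 ± 0.16, and Ch25h, which makes 25-hydroxycholesterol, by -2.02 ± 0.20. Among genes whose log2 CPM averaged 2 or more and whose times did not overlap, the immunoglobulin segment Ighv1-34 had the largest fitted decrease, -3.62 ± 1.02, but its 2 h libraries ranged from 2.42 to 31.3 CPM and the call was lost in some alternatives.

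mRNAs reported elsewhere as TTP targets mostly fell over this interval. Of 46 tested, 34 fell and 3 rose, beside 16.2% and 14.6% of all genes, and their median change was -0.88 against 0.03 over all genes. In WT cells 33 fell and 3 rose, with a median of -0.63. Their summed level was 26561 to 29372 CPM in the 4 h libraries and 81045 to 83232 CPM in the 2 h libraries, against 10873 to 11527 CPM in control cells. The members were picked from the literature with earlier results of these data known, so the count is a description. Of the 34 that fell, 33 had been above control at 2 h and 26 were still above it at 4 h by the same test.

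Plk3, a kinase of the stress response, had 529, 527 and 448 CPM at 4 h and 1749, 1917 and 1888 CPM at 2 h. The groups were far apart, with a change of -1.88 ± 0.05. Tnf had 181, 187 and 188 CPM at 4 h and 475, 518 and 517 CPM at 2 h, and its 4 h libraries had all fallen below the control mean of 212 CPM. Its change was -1.44 ± 0.06. Lif, a cytokine of the IL-6 family, had 25.4, 25.04 and 22.8 CPM at 4 h and 56.7, 64.4 and 62.1 CPM at 2 h, a change of -1.32 ± 0.10. Il10, the anti-inflammatory cytokine, was scarce, with 0.604, 1.04 and 0.513 CPM at 4 h and 2.99, 4.75 and 2.80 CPM at 2 h, and still separated between the times. The 3 members that rose were Il3, Hif1a and Il1b, named after their values were seen, with changes of 0.78 ± 0.30, 0.31 ± 0.06 and 0.15 ± 0.05. Their number was 1 when TTP-KO 2 h replicate 3 or TTP-KO 4 h replicate 1 was left out.

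**Figure D2:**
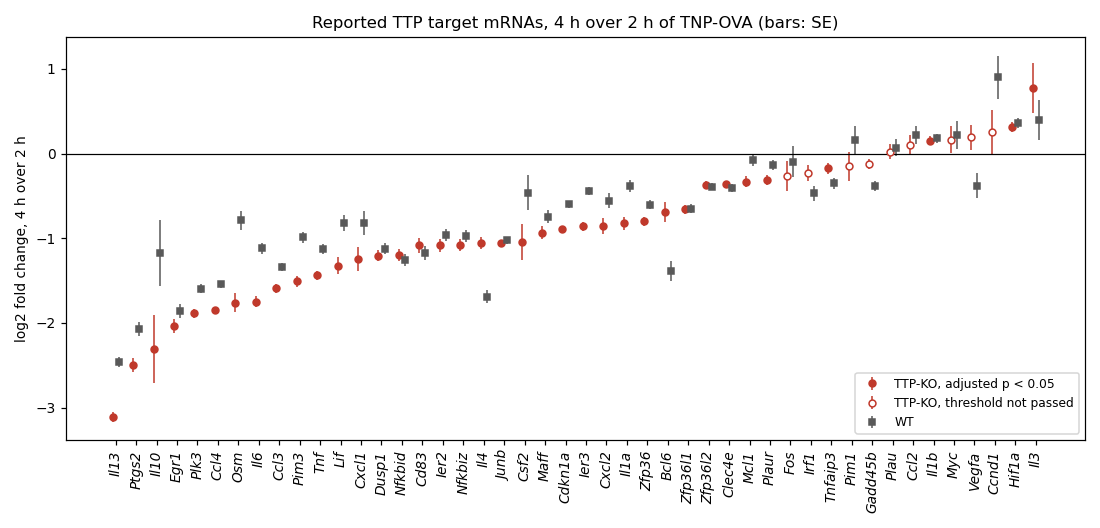
Log2 change from 2 h to 4 h, with its SE, of the 46 tested mRNAs reported as TTP targets, in TTP-KO and WT cells. Most points lie below 0 in both genotypes, from -3.11 for Il13 in TTP-KO cells upward.

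Of 32 cytokines and growth factors tested, 18 fell and 4 rose, with a median of -0.76. Those that rose were Il3, Hbegf, Igf1 and Il1b, named after their values were seen, and their number was 2 without TTP-KO 2 h replicate 3 or TTP-KO 4 h replicate 1. Il6 had 2146, 2061 and 1845 CPM at 4 h and 6886, 6851 and 6621 CPM at 2 h, and its 4 h level was still above the control mean of 698 CPM. Il6 changed by -1.75 ± 0.06. Il4, the other type 2 cytokine of basophils, had 1301, 1187 and 1186 CPM at 4 h and 2664, 2605 and 2393 CPM at 2 h. It changed by -1.06 ± 0.07 and at 4 h was still above the control mean of 264 CPM in every library. Osm, an IL-6 family cytokine, had 332, 289 and 301 CPM at 4 h and 1041, 1094 and 991 CPM at 2 h and changed by -1.76 ± 0.11. Csf1, the macrophage growth factor, changed by -1.27 ± 0.04, Tnfsf14 (LIGHT) by -1.44 ± 0.05, Inhba, the activin A subunit, by -1.11 ± 0.08, and Csf2 (GM-CSF), which was low at 5.48 CPM on average at 4 h and 11.2 CPM at 2 h, by -1.04 ± 0.21.

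Chemokines divided. Of 22 tested, 7 fell and 5 rose, with a median of -0.04. Ccl3 and Ccl4, which recruit monocytes and lymphocytes, both fell. Ccl3 had 9511, 9385 and 8318 CPM at 4 h and 27429, 27287 and 27338 CPM at 2 h, a change of -1.59 ± 0.05. Ccl4 had 7674, 7822 and 7139 CPM at 4 h and 25866, 28227 and 27416 CPM at 2 h, a change of -1.85 ± 0.04. Both remained above their control means of 2247 and 2964 CPM. The neutrophil attractant Cxcl2 changed by -0.86 ± 0.09 and its relative Cxcl1 by -1.24 ± 0.14, the Cxcl1 level of 15.2 ± 3.26 CPM at 4 h (SD, n = 3) being below both 36.3 ± 0.508 CPM at 2 h and 33.4 ± 3.21 CPM in control cells. Among those that rose, Ccl24 (eotaxin-2), a ligand of the eosinophil and basophil receptor CCR3, had 26.2, 27.8 and 19.5 CPM at 4 h and 7.84, 4.21 and 8.56 CPM at 2 h. Its groups did not overlap and it changed by 1.84 ± 0.19. Cxcl14 had 36.5, 36.9 and 30.5 CPM at 4 h and 12.5, 16.4 and 9.65 CPM at 2 h, a change of 1.42 ± 0.15. Ccl1, a CCR8 ligand, rose to 10.04 ± 0.964 CPM at 4 h, against 4.58 ± 0.808 CPM at 2 h. Ccl22 and Ccl12, both at a few CPM, completed the 5, a number that was 3 without TTP-KO 2 h replicate 1.

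Receptors for chemokines and lipid attractants showed no common direction, with 6 of 24 falling, 5 rising and a median of 0.01. Over all genes tested 16.2% fell and 14.6% rose. Cxcr4, which holds leukocytes in bone marrow, had 171, 169 and 172 CPM at 4 h and 382, 405 and 382 CPM at 2 h, so that at 4 h all libraries lay below the control mean of 184 CPM. It changed by -1.19 ± 0.04. The number that rose was 3 without TTP-KO 2 h replicate 1 or without TTP-KO 4 h replicate 1.

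Immediate early transcription factors, the genes that antigen receptors switch on within minutes without new protein synthesis, mostly fell. Of 35 tested, 28 fell and 2 rose, with a median of -0.72, and in WT cells 26 fell and 2 rose with a median of -0.70. Nr4a1, an orphan nuclear receptor, had 78.5, 69.7 and 68.9 CPM at 4 h and 364, 366 and 330.2 CPM at 2 h. The groups did not overlap and the change was -2.29 ± 0.07. Egr3, a zinc finger factor, had 143, 155 and 131 CPM at 4 h and 637, 637 and 615 CPM at 2 h, a change of -2.14 ± 0.07. Nr4a3 had 92.2, 103 and 101 CPM at 4 h and 419.5, 429 and 402 CPM at 2 h, a change of -2.08 ± 0.05. At 4 h both were still over their control means of 66.2 and 43.98 CPM, whereas the AP-1 member Fosb, at 3.54, 5.58 and 4.41 CPM at 4 h and 21.9, 18.1 and 20.7 CPM at 2 h, lay below its control mean of 9.72 CPM at 4 h. Egr1 changed by -2.03 ± 0.08, Junb by -1.06 ± 0.04, Fosl1 by -1.13 ± 0.13 and Ier2 by -1.08 ± 0.07. Nab2 and Nab1, corepressors that bind EGR proteins, changed by -1.68 ± 0.06 and -1.30 ± 0.11. The 2 that rose were Crem, by 0.89 ± 0.07, and Atf3, by 0.76 ± 0.07, named after their values were seen. Of the 28 that fell, 27 had been above control at 2 h and 21 still were at 4 h.

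The 9-base EGR motif, GCGTGGGCG or GCGGGGGCG on either strand, stood in the promoters of several of these genes, and windows around it are shown because this motif was more frequent among genes that fell, a choice made after the shares of all motifs searched were seen. Promoters were those of RefSeq for GRCm38.p6, 250 bases before to 50 after the start, each window on the strand of its gene with the motif in capitals.
Nr4a1: gcgtcagtggCGCCCCCGCccctctccat
Fosb: tgacgcaagcGCGGGGGCGggtcccggag
Nab1: actcggccgcGCGTGGGCGggagccggag
Dusp2: acgtgaagccGCGGGGGCGggcaccggcg
The Nr4a1 motif is at chr15:101266786-101266794 and reads on the opposite strand, the Fosb motif at chr7:19310087-19310095, 1 of the 3 Nab1 motifs at chr1:52500549-52500557 and the Dusp2 motif at chr2:127336061-127336069. A promoter was matched for 9765 of the tested genes, 69.4%. The motif was in 6.64% of these, in 10.2% of genes that fell, in 15.6% of 225 genes that fell at least 2-fold and in 5.38% of genes that rose. Among the immediate early list it was in 8 of 26. The AP-1 motif TGANTCA was in 5.17% of all promoters, in 10.2% of the genes that fell at least 2-fold, in 8.87% of 124 that rose at least 2-fold and in 0 of 26 of the immediate early list. These shares describe letters in a fixed window, they were not tested, and base composition was not matched.

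Feedback regulators of the signalling pathways fell alongside. In the MAP kinase feedback list 12 of 23 fell and 1, Rasa1, rose. Dusp2, a nuclear phosphatase of MAP kinases, had 38.6, 41.3 and 36.2 CPM at 4 h and 137, 132 and 127 CPM at 2 h, with the 4 h libraries around the control mean of 39.3 CPM. It changed by -1.77 ± 0.07. Spry2, an inhibitor of receptor signalling to Ras, had 48.7, 48.01 and 44.8 CPM at 4 h and 138, 141 and 116 CPM at 2 h, a change of -1.48 ± 0.09, and Errfi1, an inhibitor of EGF receptors, changed by -1.55 ± 0.09. Of 25 NF-kB subunits and feedback genes 15 fell and none rose, with a median of -0.21. The atypical IkB proteins Nfkbid and Nfkbiz changed by -1.20 ± 0.07 and -1.08 ± 0.07, each from non-overlapping groups.

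Components of calcium entry and of the IgE receptor pathway changed by smaller steps and in both directions. Of 31 calcium, calcineurin and NFAT genes 10 fell and 4 rose, beside 16.2% and 14.6% of all genes tested. Atp2b1, a plasma membrane calcium pump, had 85.8, 92.3 and 82.6 CPM at 4 h and 203, 204 and 203 CPM at 2 h. Its 4 h libraries lay about the control mean of 90.98 CPM, with a change of -1.23 ± 0.06. Orai1, the pore of the store-operated calcium channel, had 153, 148 and 138 CPM at 4 h and 308, 308 and 324 CPM at 2 h, a change of -1.10 ± 0.05, while its relative Orai3 rose by 0.49 ± 0.11. Of 43 IgE receptor signalling genes 15 fell and 11 rose, with a median of -0.08. Fcer1a, the receptor chain that binds IgE, had 439, 438 and 445 CPM at 4 h and 710.2, 732 and 744 CPM at 2 h, both below the control mean of 933 CPM. It changed by -0.73 ± 0.04. The kinase Tec changed by -0.97 ± 0.06, the adaptor Stap1 by -0.88 ± 0.06 and the adaptor Sla by -0.71 ± 0.08, and Rasgrp4, a Ras exchange factor of mast cells and basophils, by 0.89 ± 0.19.

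Among 31 genes of cytokine signalling and its feedback 14 fell and 4 rose. Socs3, an inhibitor of JAK kinases, had 134, 129.8 and 128 CPM at 4 h and 273, 296 and 298 CPM at 2 h, a change of -1.15 ± 0.07. Jak2 changed by -0.99 ± 0.12. Socs2, another member of the same inhibitor family, rose by 0.76 ± 0.10, with 82.8, 77.7 and 65.1 CPM at 4 h and 43.2, 46.98 and 42.9 CPM at 2 h. Of 50 mRNA decay regulators 14 fell and 6 rose, beside 16.2% and 14.6% of all genes tested, with a median near 0 at -0.00. The number that rose was 3 without TTP-KO 2 h replicate 1 or without TTP-KO 4 h replicate 3. Nanos1, an RNA-binding repressor, had 7.59, 6.62 and 7.29 CPM at 4 h and 25.2, 27.3 and 25.8 CPM at 2 h and changed by -1.86 ± 0.15. Btg2 and Tob1, which recruit the CCR4-NOT deadenylase, changed by -0.94 ± 0.06 and -0.75 ± 0.12. The TTP relatives Zfp36l1 and Zfp36l2, named after their values were seen, changed by -0.66 ± 0.05 and -0.37 ± 0.04.

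Genes of the mediators that basophils release fell more often than they rose. In the lipid mediator and histamine list 11 of 29 fell and 5 rose. Hdc, the histidine decarboxylase that makes histamine, had 3749, 3756 and 3685 CPM at 4 h and 5944, 6338 and 6311 CPM at 2 h. The groups were apart, and both were above the control mean of 1802 CPM, with a change of -0.73 ± 0.04. Hpgds, the haematopoietic prostaglandin D synthase, changed by -0.85 ± 0.11, the prostaglandin E2 receptor Ptger4 by -0.83 ± 0.09 and the lipoxygenase Alox15 by -0.74 ± 0.06. Ptges2 and Ptgfr rose, by 0.89 ± 0.19 and 1.10 ± 0.31, from low levels. Of 33 granule and exocytosis genes 18 fell and 6 rose. Cpa3, the granule carboxypeptidase, had 761, 744 and 776 CPM at 4 h and 1217, 1152 and 1177 CPM at 2 h, a change of -0.64 ± 0.03. Prss34, a basophil tryptase, had 9173, 9150.0 and 9463 CPM at 4 h and 12362, 12839.5 and 12785 CPM at 2 h, a change of -0.45 ± 0.03. Sytl3 changed by -0.76 ± 0.07 and its relative Sytl2, both Rab27 effectors of secretion, rose by 0.76 ± 0.11.

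At the cell surface 23 of 46 receptor and costimulatory genes fell and 5 rose. Tnfrsf12a, the receptor of TWEAK, had 37.96, 38.7 and 38.6 CPM at 4 h and 109, 114 and 114 CPM at 2 h, a change of -1.55 ± 0.07. Havcr2 (TIM-3), an inhibitory receptor, had 198, 199 and 209 CPM at 4 h and 527, 527 and 495 CPM at 2 h, a change of -1.35 ± 0.05. Cd83 changed by -1.08 ± 0.08. Tnfrsf9 (4-1BB) went the other way, with 15.7, 11.5 and 14.3 CPM at 4 h and 5.56, 6.25 and 2.64 CPM at 2 h, and rose by 1.51 ± 0.22. Of 18 purinergic, protease-receptor and ectonucleotidase genes 9 fell and 4 rose. F2r, the thrombin receptor PAR1, had 336, 327 and 352 CPM at 4 h and 642, 703 and 693 CPM at 2 h, a change of -1.01 ± 0.04. P2ry10, a receptor of lysophosphatidylserine, had 99.6, 102 and 110.3 CPM at 4 h and 43.3, 38.3 and 48.1 CPM at 2 h and rose by 1.27 ± 0.08, back near its control mean of 91.6 CPM.

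**Figure D3:**
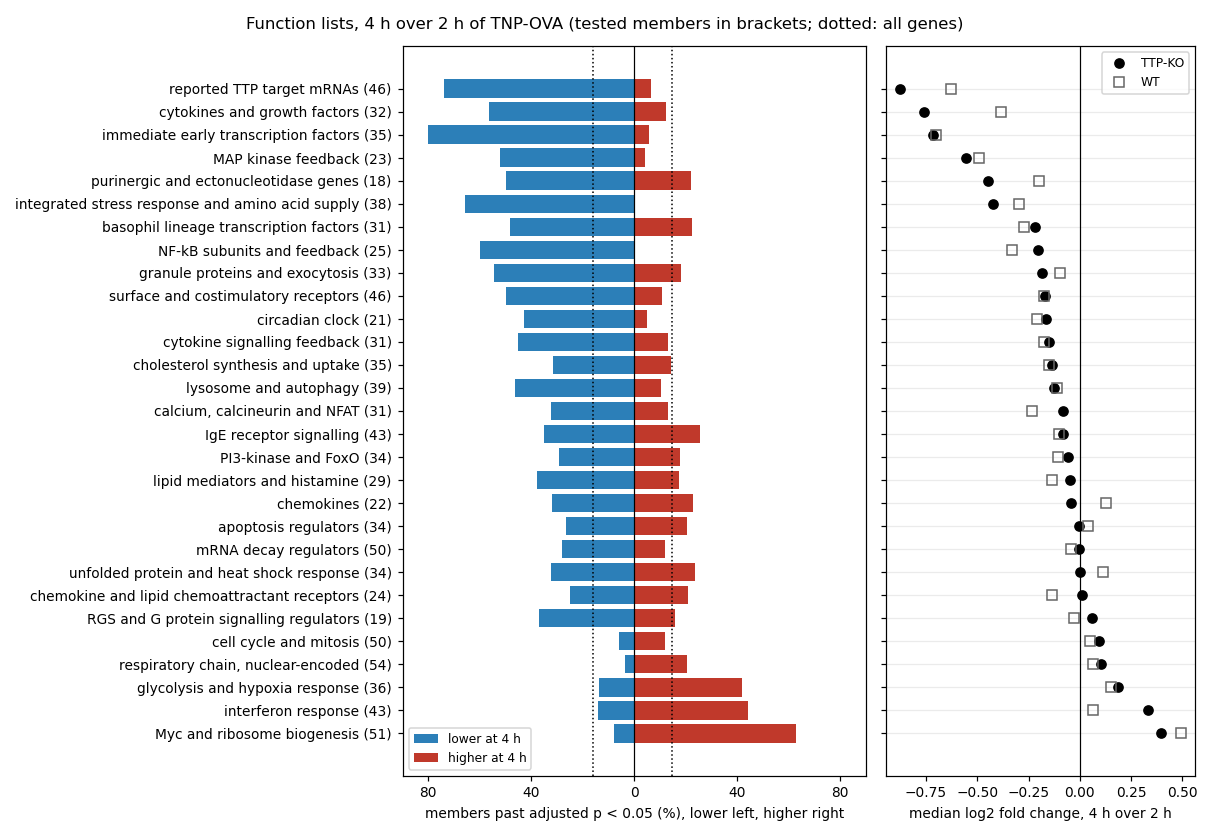
For 29 lists of related genes, the percent of tested members that fell or rose from 2 h to 4 h in TTP-KO cells, with dotted lines at the 16.2% and 14.6% of all genes, and the median log2 change in TTP-KO and WT cells. Immediate early factors (28 of 35 fell) and Myc and ribosome biogenesis genes (32 of 51 rose) have the highest shares of members that fell and that rose among the 29.

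The increases, among genes whose log2 CPM averaged 2 or more, were led by Arg1, the arginase that breaks down arginine and a marker of type 2 activation in myeloid cells. Arg1 had 123, 118 and 102 CPM at 4 h and 15.4, 17.8 and 18.05 CPM at 2 h, with a control mean of 10.6 CPM. The 2 h libraries were close to control and the 4 h libraries far above it, a change of 2.74 ± 0.10 with an edgeR adjusted p of 6.21e-19. Rab3il1, an exchange factor of Rab3 family GTPases, had 90.8, 94.2 and 87.99 CPM at 4 h and 24.2, 28.1 and 19.8 CPM at 2 h, a change of 1.91 ± 0.09. Prss37, a serine protease family member, had 48.6, 51.6 and 46.7 CPM at 4 h and 11.4, 12.6 and 12.3 CPM at 2 h, a change of 2.01 ± 0.12. Neither overlapped between the times. Other increases came from lower levels. The adaptor Scimp had 20.1, 24.01 and 19.7 CPM at 4 h and 6.98, 6.52 and 7.47 CPM at 2 h, and Ptprf, a receptor tyrosine phosphatase, 12.8, 14.8 and 14.4 CPM at 4 h and 4.84, 5.16 and 4.20 CPM at 2 h. Scimp rose by 1.60 ± 0.16 and Ptprf by 1.55 ± 0.20. Tifab, an inhibitor of TRAF6 signalling, rose by 1.55 ± 0.12 and Tmem26 by 1.52 ± 0.13.

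Exosc6, a subunit of the RNA exosome, had 13.5, 14.01 and 10.8 CPM at 4 h and 2.99, 1.49 and 2.49 CPM at 2 h, against 12.8 ± 4.23 CPM in control cells (SD, n = 3). Its 2 h libraries were the low ones, with 4 h and control libraries at a like level, and it rose by 2.45 ± 0.39. The non-coding 7SK RNA Rn7sk, which holds the elongation factor P-TEFb inactive, had 173, 164 and 219 CPM at 4 h and 69.3, 47.4 and 49.2 CPM at 2 h, with a control mean of 57.9 CPM. Here the 4 h libraries were the high ones, and it rose by 1.74 ± 0.14. The ribosomal RNA gene Rn18s-rs5 also took more of the counts, 9.94% to 10.97% at 4 h against 7.91% to 8.50% at 2 h. A link between them was not tested. Nes, Wfs1 and Col18a1 also rose, by 2.11, 1.65 and 1.56 on the log2 scale, all from 2 h means under 6 CPM.

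Genes of Myc and of ribosome biogenesis, the work of the nucleolus, mostly rose. Of 51 tested, 32 rose and 4 fell, with a median of 0.39, and in WT cells 31 rose and 3 fell with a median of 0.49. Nop16, a nucleolar protein, had 21.7, 17.4 and 20.6 CPM at 4 h and 8.83, 9.78 and 9.65 CPM at 2 h. The 2 h libraries were near the control mean of 8.34 CPM, and the change was 1.09 ± 0.15. Nop2, which methylates ribosomal RNA, had 27.2, 26.7 and 24.8 CPM at 4 h and 14.8, 15.1 and 15.1 CPM at 2 h, a change of 0.81 ± 0.13. Srm, the spermidine synthase, had 41.2, 41.1 and 45.1 CPM at 4 h and 24.4, 26.9 and 23.03 CPM at 2 h, a change of 0.78 ± 0.10. Polr1b, a subunit of RNA polymerase I, rose by 1.01 ± 0.24. Mxd1, which competes with Myc for its partner Max, fell by 1.19 on the log2 scale with 316, 290.3 and 297 CPM at 4 h and 698, 686 and 672 CPM at 2 h, and was 1 of the 4 that fell, a number that was 2 without TTP-KO 4 h replicate 3. Of the 32 that rose, 9 were above control at 2 h and 27 at 4 h. The E-box CACGTG, the letters that Myc and Max bind, was in the promoters of 11 of 44 matched members (25.0%) and in 10.0% of all matched promoters, on either strand. Among all genes that rose it was in 11.2%, and among all that fell in 10.5%. These shares were not tested, base composition was not matched, and the list was made with earlier results of these data known. The E-box of Nop2, at chr6:125131823-125131828 and position -60 from the start, is shown as an example, in capitals.
Nop2: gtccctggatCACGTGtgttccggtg

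Interferon response genes rose more often than they fell, 19 against 6 of 43, with a median of 0.33. In WT cells 15 rose and 8 fell with a median of 0.06, and no member differed between the genotypes in the test of the difference. Ifit2, an antiviral RNA-binding protein, had 20.02, 26.6 and 27.3 CPM at 4 h and 7.27, 11.5 and 9.02 CPM at 2 h. The 2 h libraries scattered about the control mean of 10.5 CPM, with a change of 1.40 ± 0.17. Ifit3 had 9.49, 11.5 and 7.29 CPM at 4 h and 4.56, 2.99 and 3.27 CPM at 2 h, a change of 1.38 ± 0.23, and Oasl2, a relative of the 2′-5′-oligoadenylate synthetases, 17.2, 15.6 and 19.6 CPM at 4 h and 9.69, 9.64 and 9.49 CPM at 2 h, a change of 0.86 ± 0.15. All of these levels were low. The guanylate-binding protein Gbp5 fell, by 0.89 on the log2 scale, and so did the chemokine Cxcl10, by 0.69.

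Of 36 glycolysis and hypoxia response genes 15 rose and 5 fell, with a median of 0.18. Hk2, the hexokinase of the first step, had 55.3, 57.5 and 56.1 CPM at 4 h and 30.6, 27.3 and 30.7 CPM at 2 h. Its 4 h libraries were back at about the control mean of 59.3 CPM, with a change of 0.93 ± 0.10. Bnip3, a mitophagy receptor induced by hypoxia, rose by 0.79 ± 0.14. Ndrg1, another hypoxia-responsive gene, moved against the list, with 92.8, 93.3 and 97.3 CPM at 4 h and 272, 288 and 279 CPM at 2 h and a change of -1.57 ± 0.05, as did Pfkfb3, which makes the activator of phosphofructokinase, with a change of -1.10 ± 0.09.

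In the integrated stress response and amino acid supply list 25 of 38 fell and none rose, with a median of -0.42. WT cells gave 23 lower and none higher with a median of -0.30. Slc7a1, a transporter of arginine and lysine, had 57.8, 63.3 and 62.3 CPM at 4 h and 139, 135 and 129 CPM at 2 h, a change of -1.14 ± 0.07. Mthfd2, a mitochondrial enzyme of folate metabolism, had 29.4, 27.8 and 25.2 CPM at 4 h and 63.8, 51.9 and 60.1 CPM at 2 h, a change of -1.09 ± 0.09. Trib3, a pseudokinase induced by the stress factor ATF4, changed by -1.39 ± 0.19 and Chac1, a glutathione-degrading enzyme, by -1.34 ± 0.25, both at low levels. In the unfolded protein and heat shock list 11 of 34 fell and 8 rose, with a median of 0.00. The mitochondrial chaperonin pair Hspd1 and Hspe1 rose by 0.43 ± 0.07 and 0.41 ± 0.11 and the cytosolic Hsph1 by 0.84 ± 0.10, while Herpud1, a component of endoplasmic reticulum degradation, changed by -0.68 ± 0.07.

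Sterol genes were mixed, 11 of 35 falling and 5 rising, beside 16.2% and 14.6% of all genes tested. The number that rose was 2 to 3 when any 1 of the 6 TTP-KO stimulated libraries was left out. Cyp51, the lanosterol demethylase, had 68.5, 71.9 and 67.6 CPM at 4 h and 114, 121 and 129 CPM at 2 h, a change of -0.81 ± 0.06. Of 39 lysosome and autophagy genes 18 fell and 4 rose, in small steps such as -0.46 ± 0.05 for the autophagy receptor Sqstm1 and -0.53 ± 0.06 for cathepsin C. The number that rose was 2 without TTP-KO 2 h replicate 2. Of 34 genes of PI3-kinase and FoxO signalling 10 fell and 6 rose, beside the same shares of all genes. Rptor, the mTORC1 subunit raptor, had 33.6, 38.9 and 36.9 CPM at 4 h and 13.3, 16.2 and 14.3 CPM at 2 h and rose by 1.32 ± 0.11, and Pik3ap1, an adaptor of PI3-kinase, changed by -0.80 ± 0.07.

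Cell cycle genes moved little, with 6 of 50 rising and 3 falling. For every list in this paragraph, the shares over all genes tested were 14.6% rising and 16.2% falling. Counts near these shares do not set a list apart. The exception by size was Ccnd2, cyclin D2, with 119, 108 and 108 CPM at 4 h and 256, 242 and 224 CPM at 2 h and a change of -1.11 ± 0.07. Nuclear-encoded respiratory chain genes gave 11 increases and 2 decreases among 54, led by 0.44 ± 0.09 for Ndufs3, and the number of increases was 4 to 6 without TTP-KO 2 h replicate 2, TTP-KO 2 h replicate 3 or TTP-KO 4 h replicate 1. Of 34 apoptosis regulators 9 fell and 7 rose. Pmaip1 (NOXA) changed by -0.82 ± 0.06 and Casp8 by 0.55 ± 0.09. Of 21 clock genes 9 fell and 1, Tef, rose, with a change of -0.71 ± 0.06 for the repressor Nfil3. Of 19 RGS and G protein regulators 7 fell and 3 rose. Rgs1, which shortens signalling of chemokine receptors, had 246, 263 and 247 CPM at 4 h and 600.5, 581 and 552 CPM at 2 h, a change of -1.20 ± 0.04.

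Transcription factors of the basophil lineage fell in 15 of 31 cases and rose in 7. Runx2 had 165, 166 and 144 CPM at 4 h and 296, 314 and 302 CPM at 2 h, a change of -0.94 ± 0.06. Irf4, a factor of activated lymphoid and myeloid cells, rose with 33.6, 34.6 and 47.1 CPM at 4 h and 21.5, 20.5 and 16.2 CPM at 2 h, both above the control mean of 6.46 CPM. It changed by 0.98 ± 0.15. Tal1 and Zfpm1, the GATA cofactor FOG1, changed by -0.78 ± 0.09 and -0.78 ± 0.14, and Bach1, a haem-regulated repressor, by -0.73 ± 0.05.

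Defining basophil markers were present in every library, and 11 of 14 fell while 1, Ms4a2, rose. Their summed level was 25386 to 25800 CPM at 4 h and 33869 to 34431 CPM at 2 h, against 26520 to 28037 CPM in control cells. The 2 h libraries were thus the high ones. In these bulk samples fewer cells of a type and less RNA per cell cannot be told apart. Some markers of other cell types passed the test too. Over all genes tested 14.6% rose and 16.2% fell, and counts near these shares do not set a list apart. Of 18 neutrophil and granulocyte precursor markers 9 fell and 2 rose, with Retnlg at -1.04 ± 0.08 and Chil3 at 0.95 ± 0.08, and a sum of 3043 to 3421 CPM at 4 h and 3419 to 3742 CPM at 2 h. Of 21 monocyte and macrophage markers 5 rose and 5 fell, with a sum of 13373 to 14336 CPM at 4 h and 15080 to 15529 CPM at 2 h. Among those that rose were Mrc1, by 1.11 ± 0.07, Mertk, Msr1 and Csf1r, and the number that fell was 3 without TTP-KO 4 h replicate 3. Of 10 dendritic cell markers 2 rose, Batf3 by 1.23 ± 0.11 and Itgax by 0.78 ± 0.08, and 2 fell, a number that was 0 without the filter on low counts. Of 11 megakaryocyte and platelet markers 5 fell and 1 rose, the number that fell being 2 to 3 without TTP-KO 2 h replicate 1, TTP-KO 2 h replicate 2, TTP-KO 4 h replicate 2 or TTP-KO 4 h replicate 3. The mast cell list gave 2 higher and 2 lower of 8, the 2 lower being lost without TTP-KO 4 h replicate 2 or without the filter. The eosinophil list gave 2 lower of 8, the erythroid list 1 of 7, the list of T, B and NK cells 2 of 11 and the progenitor list 2 of 10 with 1 higher. Mrgprb1 of mast cells and Klra8 of NK cells were at 0 in all 6 libraries. The part of these other cells in the changes above was not tested.

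WT basophils changed largely along the same lines. In WT cells 4382 genes changed from 2 h to 4 h, 31.1% of those tested. Of the 4334 genes that changed in TTP-KO cells, 4170 (96.2%) had the same sign in WT, 2966 also passed the test there in the same direction and 6 passed it in the opposite one. Across these genes the 2 sets of changes, which share no library, correlated with Pearson's r of 0.866, a description across genes that are not independent and were selected on one of the axes, and over all genes tested r was 0.436. The difference between the genotypes' changes itself passed the edgeR test for 44 genes, 0.313% of those tested, 13 with a higher value in TTP-KO cells and 31 with a lower one, while 1285 had an unadjusted p under 0.05. The number was 25 to 29, in place of 44, when TTP-KO 2 h replicate 2, TTP-KO 2 h replicate 3, TTP-KO 4 h replicate 3 or WT 4 h replicate 3 was left out.

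**Figure D4:**
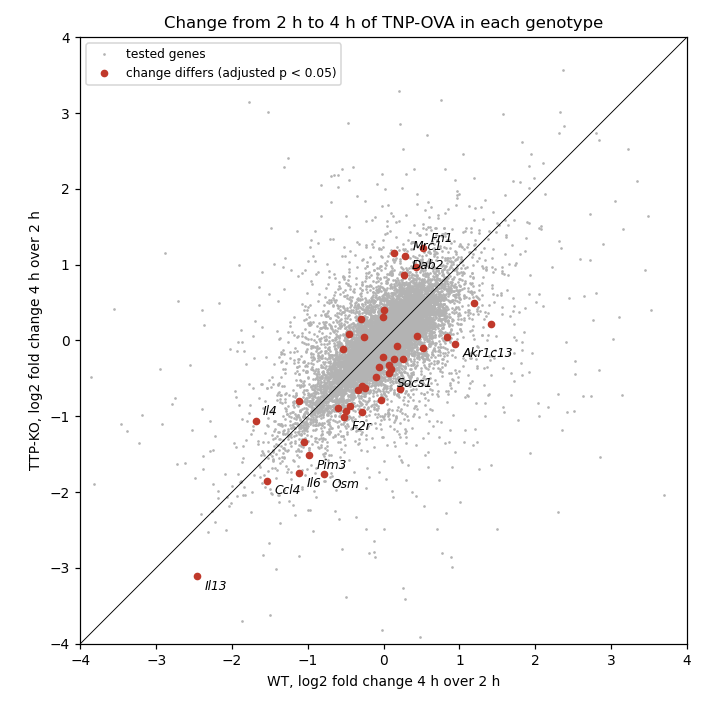
Log2 change from 2 h to 4 h in WT (horizontal) and TTP-KO cells (vertical) for every tested gene, with the 44 genes whose changes differed between the genotypes in red. The cloud follows the diagonal, and 72 genes lie outside the axes at 4.

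Reported TTP targets held 8 of the 44, from a list of 46, beside 0.313% of all genes tested, and 7 of the 8 fell further in TTP-KO cells. The list was made with earlier results of these data known, so this count is a description. Il13 had 137, 147 and 135 CPM at 4 h and 1229.6, 1201 and 1184 CPM at 2 h in TTP-KO cells, against 139, 150.4 and 159.9 CPM at 4 h and 786, 855 and 834 CPM at 2 h in WT cells. The genotypes overlapped at 4 h, and at 2 h every TTP-KO library was above every WT library, with changes of -3.11 ± 0.06 in TTP-KO and -2.46 ± 0.06 in WT cells and a difference of -0.65 ± 0.08 at an edgeR adjusted p of 4.88e-05. Il6 had 2146, 2061 and 1845 CPM at 4 h and 6886, 6851 and 6621 CPM at 2 h in TTP-KO cells, against 2094, 2428 and 2513 CPM at 4 h and 5173, 5145 and 4973 CPM at 2 h in WT cells. As for Il13, the genotypes overlapped at 4 h and TTP-KO libraries were the higher ones at 2 h, and the difference in change was -0.63 ± 0.09, adjusted p 0.00328 in edgeR. Osm had 332, 289 and 301 CPM at 4 h and 1041, 1094 and 991 CPM at 2 h in TTP-KO cells, against 451, 518 and 664 CPM at 4 h and 940.0, 955 and 927 CPM at 2 h in WT cells. Its difference of -0.97 ± 0.15 had an edgeR adjusted p of 0.0164, and TTP-KO libraries were below all WT libraries at 4 h and above them at 2 h.

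Ccl4, at 7674, 7822 and 7139 CPM at 4 h and 25866, 28227 and 27416 CPM at 2 h in TTP-KO cells, had 8667, 9003 and 9284 CPM at 4 h and 25971, 27422 and 25148 CPM at 2 h in WT cells. TTP-KO libraries were the lower ones at 4 h and the genotypes overlapped at 2 h, a difference of -0.31 ± 0.06, adjusted p 0.0133 in edgeR. The kinase Pim3 differed by -0.52 ± 0.09, the early response gene Ier3 by -0.42 ± 0.07 and the cell cycle inhibitor Cdkn1a by -0.29 ± 0.05, all past the test. The differences of Osm, Ccl4, Pim3 and Cdkn1a were not followed gene by gene through the alternatives. Il4 was the member with the opposite sign. It had 1301, 1187 and 1186 CPM at 4 h and 2664, 2605 and 2393 CPM at 2 h in TTP-KO cells, against 749, 777 and 829 CPM at 4 h and 2244, 2803 and 2546 CPM at 2 h in WT cells, and at 4 h every TTP-KO library was above every WT library. It fell less in TTP-KO cells by 0.63 ± 0.10, adjusted p 0.0123 in edgeR, a call that was lost in 1 of 19 alternatives.

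**Figure D5:**
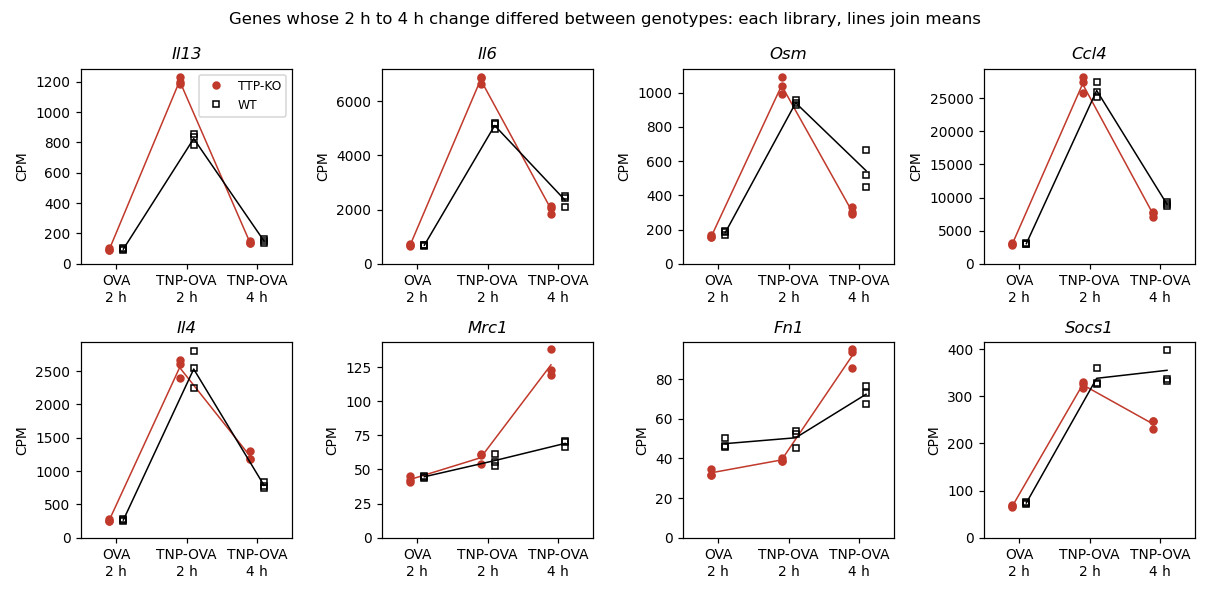
CPM of Il13, Il6, Osm, Ccl4, Il4, Mrc1, Fn1 and Socs1 in control cells, at 2 h and at 4 h, each library a point, in TTP-KO and WT cells. Il13 peaks at 2 h in both genotypes, at 1184 to 1229.6 CPM in TTP-KO cells, and Mrc1 is highest at 4 h in TTP-KO cells, at 119 to 138 CPM.

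Outside that list, Socs1, an inhibitor of cytokine receptor kinases, had 247, 230.3 and 247 CPM at 4 h and 317, 331 and 325 CPM at 2 h in TTP-KO cells, against 332, 336 and 397 CPM at 4 h and 327, 359.9 and 327 CPM at 2 h in WT cells. At 4 h the TTP-KO libraries were below all WT libraries, and at 2 h they overlapped. It fell in TTP-KO cells and changed by 0.07 ± 0.06 in WT cells, a difference of -0.50 ± 0.08 at an edgeR adjusted p of 0.00206. F2r had 336, 327 and 352 CPM at 4 h and 642, 703 and 693 CPM at 2 h in TTP-KO cells, against 512, 521 and 557 CPM at 4 h and 754, 739 and 799 CPM at 2 h in WT cells, and differed by -0.48 ± 0.06. TTP-KO libraries were below WT libraries at both times, further at 4 h. The chemokine Ccl6 differed by -0.38 ± 0.06, having 4062 ± 179.6 CPM at 4 h and 6269 ± 131 CPM at 2 h in TTP-KO cells, against 5661 ± 351 CPM at 4 h and 6724 ± 167 CPM at 2 h in WT cells (SD, n = 3 each). The aldo-keto reductases Akr1c13 and Akr1c18 differed by -0.98 ± 0.13 and -0.47 ± 0.08, with changes of -0.04 and -0.37 in TTP-KO cells and of 0.94 and 0.10 in WT cells. Akr1c13 had 65.7, 54.8 and 65.3 CPM at 4 h and 61.8, 63.5 and 66.6 CPM at 2 h in TTP-KO cells, against 119.5, 112 and 134 CPM at 4 h and 65.7, 59.03 and 65.8 CPM at 2 h in WT cells. These genes have close paralogues in one cluster, so their estimated counts are uncertain.

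Mrc1, the mannose receptor, had the smallest p among the 13 genes with a higher change in TTP-KO cells. It had 119, 123 and 138 CPM at 4 h and 53.9, 61.6 and 60.4 CPM at 2 h in TTP-KO cells, against 66.3, 70.2 and 70.9 CPM at 4 h and 52.8, 61.4 and 55.4 CPM at 2 h in WT cells. The 4 h libraries of TTP-KO cells stood above all others, and the difference in change was 0.82 ± 0.10 at an edgeR adjusted p of 1.06e-04. Fn1, fibronectin, had 93.9, 95.4 and 85.8 CPM at 4 h and 40.04, 38.8 and 38.9 CPM at 2 h in TTP-KO cells, against 73.1, 67.6 and 76.6 CPM at 4 h and 53.95, 45.2 and 52.2 CPM at 2 h in WT cells, a difference of 0.70 ± 0.11, adjusted p 0.00145 in edgeR. The endocytic adaptor Dab2 had 85.5, 83.3 and 87.1 CPM at 4 h and 46.9, 45.3 and 49.01 CPM at 2 h in TTP-KO cells, against 55.9, 57.2 and 47.5 CPM at 4 h and 43.6, 48.5 and 41.9 CPM at 2 h in WT cells, a difference of 0.59 ± 0.11. Beside these, the 21 monocyte and macrophage markers summed to 13373 to 14336 CPM at 4 h and 15080 to 15529 CPM at 2 h in TTP-KO cells, against 10875 to 11306 CPM at 4 h and 11973 to 12979 CPM at 2 h in WT cells. In control cells they summed to 14475 to 14730.5 CPM in TTP-KO and 12314 to 12528 CPM in WT. Mrc1 was the only 1 of the 21 whose change differed. Neutrophil and precursor markers also summed higher in TTP-KO cells at 4 h, 3043 to 3421 CPM against 2107 to 2247 CPM in WT cells. Dendritic cell markers summed lower, 2721 to 2875 CPM against 4236 to 4385 CPM. Both kept this order at 2 h and in control cells. The part of such cells in the result was not tested. Kctd12, an auxiliary subunit of GABA-B receptors, fell in both genotypes and less in TTP-KO cells, by 0.33 ± 0.05. Ptgr3, Picalm and Cltc differed by 0.55, 0.31 and 0.42, calls that were lost in 4, 4 and 8 of 19 alternatives.

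Set beside the control cells, both times held many differences. At 4 h 4932 genes differed from control, 35.0% of those tested, and at 2 h 4852 did, 34.5%. A difference of at least 2-fold was seen in 839 genes at 4 h, 450 higher and 389 lower, and in 1008 genes at 2 h, 704 higher and 304 lower. These comparisons share the control libraries with each other and the stimulated libraries with the 2 h to 4 h comparison, so their values stand side by side only. Il13 differed from control by 3.68 ± 0.06 at 2 h and 0.57 ± 0.06 at 4 h, and Il6 by 3.28 ± 0.07 at 2 h and 1.53 ± 0.06 at 4 h. Arg1 differed by 0.69 ± 0.12 at 2 h and 3.43 ± 0.10 at 4 h, Nop16 by 0.18 ± 0.16 and 1.27 ± 0.15, and Irf4 by 1.59 ± 0.19 and 2.57 ± 0.17. Faah was 1.89 ± 0.06 at 2 h and -0.17 ± 0.06 at 4 h.

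The nonamer was somewhat more frequent among transcripts that fell. A 3′ UTR was matched for 11595 of the tested genes, 82.4%, and 941 of these, 8.12%, held at least 1 nonamer. Of 2030 genes that fell 10.99% held it, of 277 that fell at least 2-fold 14.4%, and of 1976 that rose 6.43%. Read the other way, 23.6% of genes with 1 nonamer and 23.9% of those with 2 or more fell, against 17.0% of those with none. These shares are for TTP-KO cells, and a like shift was seen in WT cells. Median changes with 1, 2 or more and 0 nonamers were 0.003, -0.021 and 0.048 in TTP-KO cells. In WT cells they were -0.034, -0.019 and 0.036. Longer UTRs hold the nonamer more often, and within short, middle and long UTRs, classes of equal size, the share that fell was 20.0%, 23.3% and 24.5% with the nonamer, against 12.95%, 17.7% and 20.8% without. Many falling transcripts carry no nonamer. The UTRs of Il6, Ccl3, Ccl4 and Osm hold none, though they hold 10, 5, 2 and 6 copies of the shorter core ATTTA, and neither do those of Nr4a1, Egr3 and Fosb. Of the genes whose change was lower in TTP-KO than in WT cells, 4 of 30 matched held a nonamer, and of those whose change was higher 0 of 13 did.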

How the data were processed

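RNA was measured by bulk sequencing in 18 libraries in 6 groups of 3, assigned by the sample titles and characteristics. The authors deposited 1 table whose values are expected counts, estimates that need not be whole numbers. Per the submitters' processing notes, the tools were cutadapt 3.5, STAR 2.7.10a, RSEM 1.3.1 and R 4.4.1 and 4.4.0 with GRCm39. Their roles and settings, the annotation release and whether strand was used are not given in the sources used here, so overlapping and antisense genes are uncertain.

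From these counts, rounded to whole numbers, genes were kept by filterByExpr over the 6 groups (14076 of 56413, holding 99.8% of counts), scaled by TMM and fitted with edgeR 4.0.16 in R 4.3.3 (robust quasi-likelihood, 6 group means, 12 residual degrees of freedom), with Benjamini-Hochberg adjustment over all genes tested and a threshold of 0.05. Contrasts were TTP-KO 4 h minus 2 h, the same in WT, the difference between them, and each TTP-KO time minus control. SEs were taken from the fold change and F statistic. A permutation test of 3 against 3 libraries cannot go below p = 0.1, so none was used. The scripts were tested on simulated data.

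Alternatives were RLE scaling, no filter and a stricter one, DESeq2 1.42.0, limma-voom (limma 3.58.1), a fit on the compared libraries only, a replicate block and leaving out each library. Same-numbered libraries correlated by -0.11 to 0.06 in their deviations, so no pairing by number was seen, and none is stated. No 2 libraries of a group agreed within sampling noise (chi-square over degrees of freedom 3.05 to 7.34 in 18 pairs).

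Genes named are the 15 largest increases and 15 largest decreases averaging 2 or more in log2 CPM, with no overlap between times, the 8 smallest p in each direction for the difference between genotypes, up to 5 changed members of each list (up to 12 for TTP targets, cytokines, chemokines and immediate early factors) and Zfp36. Genes named beyond this were chosen after their values were seen. A few genes that the rule names are not reported here. The lists, of 29 functions, 10 cell types and 4 name patterns, and the choice of comparison were made with earlier results of these data known. List symbols were matched through a gene name table, 18 by an older name, and 2 were not matched. The 3′ UTRs came from GENCODE M21 and the promoters from RefSeq, both on GRCm38, and give sequence only.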

Additional observations from a re-analysis of the deposited data

Results flagged for a closer look

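For 20 named genes the change from 2 h to 4 h differed between TTP-KO and WT cells in the edgeR test of the difference itself, with an adjusted p under 0.05. Values are the TTP-KO change minus the WT change on the log2 scale. Alternatives were followed gene by gene for 16 of the 20, and 12 of these kept the call under every one. Osm, Ccl4, Pim3 and Cdkn1a were not followed in this way.

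Among secreted and early response genes, lower values in TTP-KO cells were found for Osm at -0.97, Il13 at -0.65, Il6 at -0.63, Pim3 at -0.52, Ier3 at -0.42, Ccl6 at -0.38, Ccl4 at -0.31 and Cdkn1a at -0.29. Others with a lower value were Akr1c13 at -0.98, Socs1 at -0.50, F2r at -0.48 and Akr1c18 at -0.47. Higher values in TTP-KO cells were found for Mrc1 at 0.82, Fn1 at 0.70, Il4 at 0.63, Dab2 at 0.59, Ptgr3 at 0.55, Cltc at 0.42, Kctd12 at 0.33 and Picalm at 0.31. For Il13 and Il6 the libraries of the genotypes separated at 2 h and overlapped at 4 h, whereas for Ccl4, Socs1, Il4, Mrc1 and Dab2 they separated at 4 h and overlapped at 2 h. For Osm the TTP-KO libraries were above WT at 2 h and below at 4 h, and for F2r below at both times.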

How the results depend on the processing

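The count of genes that changed from 2 h to 4 h in TTP-KO cells stayed within 1.5 times its value under every alternative, at 3615 to 4365 against 4334. Leaving out 1 library gave 3615 to 3703 in all, 1558 to 1706 higher and 1968 to 2057 lower. In WT cells leaving out 1 library gave 3634 to 3903, 1512 to 1777 higher and 1938 to 2265 lower. Against control the 4 h count was 4264 to 4365 (2248 to 2340 higher, 1994 to 2062 lower) and the 2 h count 4288 to 4489 (2218 to 2329 higher, 2027 to 2172 lower). The count of genes whose change differed between genotypes, 44, moved more. It was 134 without a filter on low counts (45 higher, 89 lower), 104 in DESeq2 (41 higher, 63 lower), and the higher ones were 20 of 56 in a fit on the compared libraries only. Leaving out 1 library gave 25 to 53 in all, 7 to 22 higher and 17 to 41 lower, with 29 without TTP-KO 2 h replicate 2, 25 without TTP-KO 2 h replicate 3, 29 without TTP-KO 4 h replicate 3 and 26 without WT 4 h replicate 3. The cause was not tested.

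With the replicate number as a block, 4320 genes changed in TTP-KO cells, 4224 of them shared with the fit without a block, and 43 differed between genotypes, 39 shared. Same-numbered libraries did not deviate together, and the sources used here do not state whether libraries were made in matched sets. Of 234 named genes that passed the test of the change in TTP-KO cells, 201 did so under every alternative. Another 33 lost it when some library was left out, and none changed sign. Akr1c13, at -0.04 and not past the test, was -0.086 without TTP-KO 4 h replicate 1 and 0.036 without TTP-KO 4 h replicate 2. Low genes such as Il10, Wfs1 and Polr1b rest on few counts, and their fold changes are the least precise.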

Other observations

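Gene families that share a name pattern gave counts that stand in no list above. They are to be read beside the 14.6% of all genes tested that rose and the 16.2% that fell. Of 83 cytosolic ribosomal protein genes 23 fell from 2 h to 4 h in TTP-KO cells and 1, Rps27l, rose, with a median of -0.19, while WT cells gave 24 lower, 2 higher and a median of -0.29. Rps4x had 715, 713 and 702 CPM at 4 h and 908, 949.9 and 970.2 CPM at 2 h, a change of -0.41 ± 0.04, and Rpl13a changed by -0.33 ± 0.05. After TMM scaling the median of these structural proteins of the ribosome was opposite in sign to the 0.39 of the ribosome biogenesis list. Of the 83, 59 passed the test in neither direction. Before scaling, ribosomal protein genes took 2.60% to 2.80% of counts at 4 h and 2.66% to 2.97% at 2 h, ranges that overlap. How far the fall rests on the scaling was not tested. Of 45 replication-dependent histone genes 5 fell and none rose, with H2bc8 at -1.12 ± 0.21 and H1f2 at -0.39 ± 0.06. Their transcripts lack a poly(A) tail in dividing cells, and ribosomal protein genes have many processed pseudogenes, so both families are uncertain here.

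Of 330 numbered zinc finger genes 37 rose and 28 fell, with a median of 0.13. Both shares were below the 14.6% and 16.2% of all genes tested. The number that rose was 23 without TTP-KO 2 h replicate 1 or TTP-KO 4 h replicate 3 and 22 in DESeq2. Zbtb20, a transcriptional repressor, fell to 21.1, 20.0 and 19.0 CPM at 4 h, against 45.7, 51.1 and 44.8 CPM at 2 h. Of 20 mitochondrially encoded genes 3 fell, mt-Atp8, mt-Co1 and mt-Cytb, and none rose, with mt-Co1 at -0.21 ± 0.03. That share is near the 16.2% of all genes that fell. Before TMM scaling, mitochondrial transcripts took 1.90% to 2.01% of counts at 4 h and 1.76% to 2.00% at 2 h. These percentages sum all mitochondrially encoded genes. The 3 that fell were not compared without scaling, so how far their fall rests on it was not tested.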
